A study of Mus musculus with 6 samples.

Results

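The 10 genes described here encode the neurotrophins Bdnf and Ntf3, the receptors Ntrk2, Ntrk3, Ngfr and Sort1, and the CREB group Creb1, Crem, Crebbp and Crtc1. They were taken by symbol from the 43346 genes of the count table, with earlier results of these data known. In the comparison of 10HDA with vehicle, 0 of the 10 reached an adjusted p under 0.1 by edgeR, either without or with the culture as a block. Bdnf had a log2 fold change of 0.21, and the log2 fold change of its receptor Ntrk2 was -0.23. In 1 setting, chosen after seeing the data and resting on cultures 3 and 4 alone with culture as a block, Ntrk2 and Ntrk3 were lower with 10HDA and passed, as did 8.49% of all genes tested there. Neither passed in any other setting run.

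RNA was sequenced from primary cortical cell cultures of gestational day 15.5 mouse embryos, treated with vehicle or with 1 mM 10HDA (10-hydroxy-2-decenoic acid, a fatty acid of royal jelly), to ask how 10HDA alters gene expression there. The vehicle was dimethyl sulfoxide, which the labels spell DSMO. Cultures 1, 3 and 4 each gave 1 vehicle and 1 10HDA library, so there were 6 libraries and 3 per treatment. In the labels all 6 carry the strain Cyp19-EGFP, a transgene that places EGFP under the regulatory sequences of the aromatase gene Cyp19a1, and the genotype SRY+, which marks male embryos. The methods for these libraries name C57BL/6 embryos instead. How many embryos were pooled in a culture and how long the cells were exposed are not given in the sources used here.

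BDNF and neurotrophin-3 are secreted proteins that support the survival, neurite growth and synapses of cortical neurons. BDNF signals through the receptor tyrosine kinase TrkB (Ntrk2) and neurotrophin-3 mainly through TrkC (Ntrk3), whereas their uncleaved precursors bind p75 (Ngfr) together with sortilin (Sort1). Trk signalling and calcium entry lead to phosphorylation of CREB, which binds cyclic AMP response elements (CREs) in the promoters of activity-regulated genes, Bdnf among them, and recruits the coactivators Crebbp and Crtc1.

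Library totals ran from 9144736 to 13367194 counts, so that 3 counts corresponded to 0.216 to 0.329 CPM (counts scaled to a common library size), and each of the 10 genes had at least 25 counts in every library. The label SRY+, for male embryos, was not borne out evenly. The summed CPM of 4 Y-linked genes was 8.88 and 9.09 in the vehicle and 10HDA libraries of culture 1, against 95.8 to 133 in the other 4 libraries, while Xist, which is transcribed from the inactive X chromosome of female cells, had 1010 and 1410 CPM in culture 1 against 394 to 826 CPM elsewhere. Both libraries of culture 1 thus went against the label by their Y-linked genes, and in cultures 3 and 4 the Xist level also went against cells of male embryos alone. Culture 1 stood furthest apart, and results that change without it are given both ways. Summed markers of neurons and astrocytes were abundant in all libraries, although the astrocyte markers Gjb6 and S100b reached at most 0.144 and 0.832 CPM. Microglia markers were nearly absent, with a sum of 0.792 to 1.21 CPM over 8 genes and Tmem119 at 0.

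Levels of the genes were compared per length, as RPKM, which divides CPM by the length of the gene model in kilobases, over the 6 libraries. Ntrk2 had the highest mean level at 34.2 RPKM (range 28.8 to 40.2), followed by Sort1 at 26.8 RPKM (range 24.2 to 29.5), and these ranges overlapped. Crtc1 came next at 18.7 RPKM, below every library of Sort1 and above every library of Crebbp. Crebbp (10.5 RPKM), Ntrk3 (9.59 RPKM), Ntf3 (6.30 RPKM) and Creb1 (6.05 RPKM) followed, each overlapping its neighbour in this order. Bdnf (1.18 RPKM), Crem (1.16 RPKM) and Ngfr (1.03 RPKM) were lowest, overlapped one another and lay below every library of Creb1. The receptor of BDNF was thus among the most abundant of these transcripts and Bdnf among the least abundant. The length used for Ntrk3 was 5358 bases, against 30170 exon bases in the GRCm38 annotation used below for shared exon bases. For Ntrk2 it was 13806 against 19292. The RPKM and rank of these genes therefore rest on the deposited gene models.

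Bdnf lies on chromosome 2 (GRCm38 chr2:109674700-109727007, plus strand) and is transcribed from several promoters, each with its own first exon. RefSeq promoter windows of GRCm38.p6, running from 250 bases before to 50 after each start, were at hand for 7 of the 10 genes and comprised 14 windows, 7 of them for Bdnf. The full CRE, TGACGTCA, was searched on both strands and was found in 0 of the 14 windows, against 1.79% of all 32851 windows in the table. The CRE core, TGACG or its reverse complement CGTCA, which the full CRE also contains, was found in 1 of the 14 windows (7.14%) against 20.8% of all windows. That window belongs to Bdnf, and its 250 bases before the start are shown 5′ to 3′ on the plus strand with the core in capitals.
Bdnf, chr2:109692186-109692435: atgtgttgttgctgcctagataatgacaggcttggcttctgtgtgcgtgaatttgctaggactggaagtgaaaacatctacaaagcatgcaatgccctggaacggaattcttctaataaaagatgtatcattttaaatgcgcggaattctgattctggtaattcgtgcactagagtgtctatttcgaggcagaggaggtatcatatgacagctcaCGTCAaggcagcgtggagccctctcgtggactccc
The core begins 35 bases before the start site. Counted by gene, 0 of the 7 genes with windows held the full CRE and 1 (14.3%) held the core. Of all 27025 genes with windows, 2.03% and 23.0% did. For comparison, a list of 24 genes known as CREB targets, and for that reason likely to hold a CRE, had windows for 18. Of these 18 genes, 4 (22.2%) held the full CRE and 17 (94.4%) the core. Stretches around the full CRE of these 4 genes are shown beside the Bdnf stretch, each 5′ to 3′ on the strand of its gene with the matching letters in capitals.
Bdnf, chr2:109692391-109692415, plus strand: tgacagctcaCGTCAaggcagcgtg
Sst, chr16:23890875-23890902, minus strand: cctccttggcTGACGTCAgagagagagt
Scg2, chr1:79440077-79440104, minus strand: gctgagccggTGACGTCAgcgtggaatg
Pcsk1, chr13:75089769-75089796, plus strand: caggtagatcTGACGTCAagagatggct
Dusp1, chr17:26508598-26508625, minus strand: gtagggcgggTGACGTCAccgcccggtc
The Bdnf stretch holds the core without the full palindrome. A match to these letters is a description of the sequence and was not linked to binding in these cultures.

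Bdnf was detected at a low level, under the filter of at least 10 CPM in at least 3 libraries that defined the 10520 genes tested. The values were 6.37, 6.28 and 7.74 CPM in the vehicle libraries of cultures 1, 3 and 4, and 8.06, 6.19 and 9.44 CPM with 10HDA. It was higher with 10HDA in cultures 1 and 4, nearly level in culture 3, and the treatments overlapped. Means were 6.80 ± 0.819 CPM with vehicle and 7.90 ± 1.63 CPM with 10HDA (SD, n = 3 each). In an edgeR quasi-likelihood fit on all 26859 genes with a count, the log2 fold change was 0.21 (SE 0.20, 95% CI [-0.18, 0.61], adjusted p = 0.757), so that changes from -11.7% to 52.2% lay within the interval. The variance in that fit was pooled over genes, so intervals of genes under the filter do not measure their own spread between libraries. Of the exon bases of Bdnf, 896 of 6217 are shared with the antisense gene Gm45346, which is not among the counted genes. The methods name a strand-specific library kit, but the strand setting of the counting is not stated. Whether reads from the 2 genes were kept apart there is therefore not known.

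Ntf3, which encodes neurotrophin-3, also lay under the filter (chr6:126101412-126166910, minus strand). Vehicle libraries of cultures 1, 3 and 4 had 7.62, 7.27 and 11.2 CPM, and 10HDA libraries 9.52, 8.21 and 10.2 CPM. Cultures 1 and 3 had more and culture 4 less with 10HDA, within overlapping ranges. Ntf3 had a log2 fold change of 0.11 (SE 0.19, 95% CI [-0.26, 0.48], adjusted p = 0.879 by edgeR on all genes with a count).

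**Figure D1:**
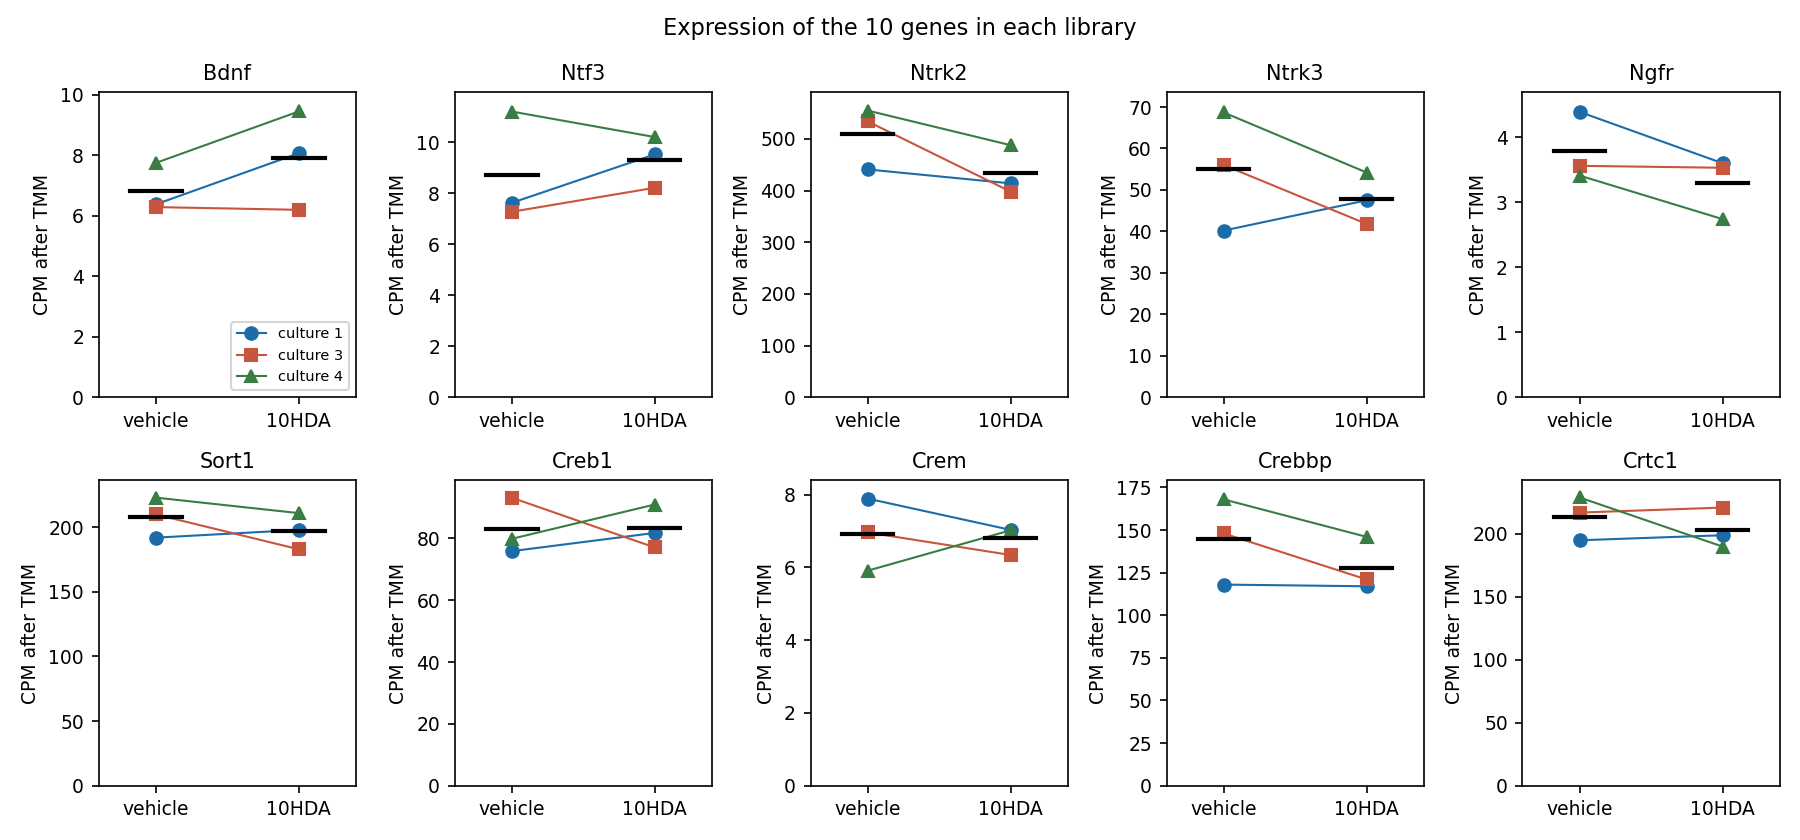
Expression of the 10 genes in each library, in CPM after TMM scaling on linear axes that start at 0, with vehicle on the left and 10HDA on the right of each panel. Lines join the libraries of a culture and black bars are means of 3 libraries; the treatments overlap in all 10 panels, and Ntrk2 falls from 534 to 398 CPM in culture 3 but only from 441 to 414 CPM in culture 1.

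Among the receptors, Ntrk2 gave the smallest p of the 10 genes. Ntrk2 encodes TrkB and spans chr13:58806569-59133970 on the plus strand. Its vehicle libraries had 441, 534 and 555 CPM in cultures 1, 3 and 4, and its 10HDA libraries had 414, 398 and 488 CPM. It was lower with 10HDA within each of the 3 cultures, by most in culture 3, yet the vehicle library of culture 1 lay below the 10HDA library of culture 4. Means were 510 ± 60.5 CPM with vehicle and 433 ± 47.8 CPM with 10HDA (SD, n = 3 each). The edgeR quasi-likelihood test gave a log2 fold change of -0.23 (SE 0.12, 95% CI [-0.50, 0.03], adjusted p = 0.530). With culture as a block the log2 fold change was -0.23 (SE 0.095, adjusted p = 0.165 by edgeR). Counts are per gene, so full-length TrkB and its truncated forms, which lack the kinase, were not resolved.

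Ntrk3 encodes TrkC, the receptor of neurotrophin-3 (chr7:78175959-78738012, minus strand). Its vehicle libraries had 40.2, 56.0 and 68.7 CPM in cultures 1, 3 and 4, against 47.5, 41.8 and 54.2 CPM with 10HDA. Cultures 3 and 4 were lower with 10HDA, by log2 ratios of -0.42 and -0.34, whereas culture 1 was higher by 0.24. With 1 library per treatment in a culture, this difference between cultures was not tested. Over all 3 cultures the log2 fold change was -0.20 (SE 0.18, 95% CI [-0.59, 0.18], adjusted p = 0.697 by edgeR).

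Leaving out culture 1, which was low in Y-linked genes, changed the calls of these 2 receptors only together with the block. Without culture 1 and without the block, the log2 fold change was -0.28 for Ntrk2 (adjusted p = 0.799) and -0.36 for Ntrk3 (adjusted p = 0.784). Without culture 1 and with the block, Ntrk2 fell with a log2 fold change of -0.28 (SE 0.11, adjusted p = 0.0894 by edgeR) and Ntrk3 with one of -0.36 (SE 0.13, adjusted p = 0.0641). These 2 of the 6 tested genes were the only ones past the threshold in that fit, in which 8.49% of the 10234 genes tested passed, 4.97% as lower. This alternative was chosen after seeing the data and rests on 2 cultures. Its variance was pooled over genes, so the 2 calls do not measure how the difference in either gene varied between those cultures.

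Ngfr, which encodes p75 (chr11:95568818-95587735, minus strand), had the lowest mean RPKM of the 10 genes, with a range that overlapped those of Bdnf and Crem. Its vehicle libraries had 4.39, 3.56 and 3.41 CPM in cultures 1, 3 and 4, and its 10HDA libraries 3.6, 3.53 and 2.74 CPM. It was lower with 10HDA in 3 of 3 cultures, though in culture 3 by a log2 ratio of only -0.01. Its log2 fold change was -0.17 (SE 0.25, 95% CI [-0.66, 0.31], adjusted p = 0.825 by edgeR on all genes with a count), an interval from -36.9% to 24.3%.

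Sort1, which encodes sortilin (chr3:108284082-108361511, plus strand), differed little between treatments. Vehicle libraries had 192, 210 and 223 CPM in cultures 1, 3 and 4, and 10HDA libraries 198, 183 and 211 CPM. Culture 1 was slightly higher and cultures 3 and 4 were lower with 10HDA. Sort1 had a log2 fold change of -0.08 (SE 0.10, adjusted p = 0.797 by edgeR), with an interval from -18.6% to 10.4%. Sortilin thus had one of the narrowest intervals among the 10 genes. Of its exon bases 338 of 7569 are shared with the antisense gene Gm12523, which had 0 counts.

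Creb1, which encodes CREB itself (chr1:64532645-64604548, plus strand), had nearly equal means in the treatments, 83.0 ± 9.05 CPM with vehicle and 83.3 ± 7.05 CPM with 10HDA (SD, n = 3 each). The libraries of cultures 1, 3 and 4 had 75.9, 93.2 and 79.9 CPM with vehicle and 81.8, 77.1 and 91.0 CPM with 10HDA. Culture 3 was lower and cultures 1 and 4 were higher with 10HDA. For Creb1 the log2 fold change was 0.01 (SE 0.11, adjusted p = 0.989 by edgeR), and its interval ran from -15.4% to 19.1%.

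Crem, a CREB relative with both activating and repressing forms, was under the filter. It had 7.89, 6.96 and 5.91 CPM in the vehicle libraries of cultures 1, 3 and 4, and 7.03, 6.34 and 7.02 CPM with 10HDA. The 10HDA values lay within the range of the vehicle values. Its log2 fold change was -0.02 (SE 0.20, adjusted p = 0.989 by edgeR on all genes with a count). The inducible repressor ICER, which starts within Crem, was not resolved by counts per gene, and 472 of the 5895 exon bases of Crem are shared with Gm6225 on the other strand (0.305 CPM).

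Of the coactivators, Crebbp, a histone acetyltransferase that binds phosphorylated CREB (chr16:4081328-4213997, minus strand), had 118, 148 and 168 CPM with vehicle and 117, 121 and 146 CPM with 10HDA in cultures 1, 3 and 4. It was lower in 3 of 3 cultures, but by a log2 ratio of only -0.02 in culture 1. The log2 fold change was -0.18 (SE 0.14, 95% CI [-0.48, 0.12], adjusted p = 0.667 by edgeR). Crtc1, a calcium-regulated coactivator (chr8:70382355-70439579, minus strand), had 195, 217 and 229 CPM with vehicle and 199, 221 and 190 CPM with 10HDA. Cultures 1 and 3 were nearly level and culture 4 was lower with 10HDA. The log2 fold change was -0.07 (SE 0.10, adjusted p = 0.825 by edgeR), with an interval from -18.4% to 11.4%.

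**Figure D2:**
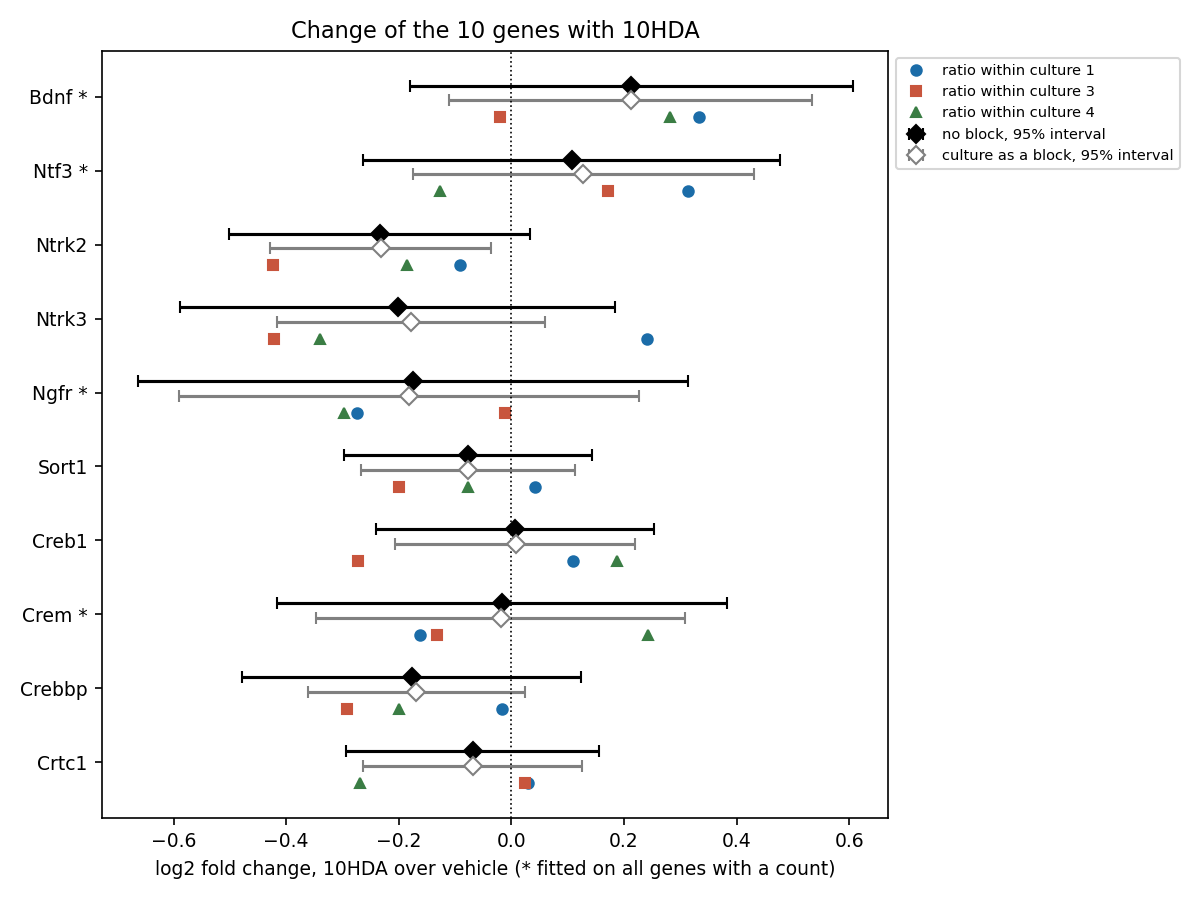
Log2 fold change of 10HDA over vehicle for the 10 genes, with black diamonds and 95% intervals from edgeR without a block, open diamonds with culture as a block, and coloured symbols for the log2 ratio within each culture. Every interval without a block includes 0, and only the blocked interval of Ntrk2 lies wholly below 0; genes with an asterisk were fitted on all genes with a count.

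Across the 10 genes, 6 passed the filter and 4 (Bdnf, Ntf3, Ngfr and Crem) did not. Of the 6 tested, 0 passed an adjusted p of 0.1 by edgeR, against 0.627% of the 10520 genes tested (66 genes, 21 higher and 45 lower; 31.8% higher, and 46.7% of 45 genes when only library size was used for scaling). At an unadjusted p under 0.05 there were 0 of 6, against 10.1% of all genes. With culture as a block, 0 of 6 passed although 8.98% of all genes did, and Ntrk2 was the 1 with an unadjusted p under 0.05. On all genes with a count, 0 of the 4 genes under the filter passed, against 2.37% of genes without the block and 5.02% with it. For 0 of the 10 genes did the libraries of the treatments separate, which 13.5% of the genes tested did. Of the 6 tested, 5 had a log2 fold change below 0 (4 with library size alone, where Crtc1 was above 0), against 52.1% of all genes, and Ntrk2 and Crebbp (33.3% of the 6) were lower in 3 of 3 cultures, against 21.4%. The median log2 fold change of the 6 was -0.13, beside -0.01 over all genes tested. It was -0.05 with library size alone and ranged from -0.204 to -0.00577 when single libraries were left out, nearest to 0 without the vehicle library of culture 4.

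Markers of other cell types moved in the same libraries. Astrocytes, which carry mostly truncated TrkB, had a summed marker level of 1430 to 1750 CPM over 12 genes in vehicle libraries and 1100 to 1380 CPM with 10HDA. All 9 tested astrocyte markers had a log2 fold change below 0 (median -0.30), and Gfap, Aldh1l1 and Aldoc fell by the edgeR test (log2 fold changes -1.28, -1.02 and -0.81; adjusted p = 0.0428, 0.0233 and 0.0189). The 2 most abundant astrocyte markers, Slc1a3 and Slc1a2, had log2 fold changes of -0.23 and -0.20 that did not pass (adjusted p = 0.543 and 0.673). Shared neuron markers summed to 9170 to 9660 CPM over 11 genes with vehicle and 7640 to 8620 CPM with 10HDA, with a median log2 fold change of -0.22, 7 of 11 without overlap between treatments and 0 of 11 past the threshold. With culture as a block 4 of the 11 fell, namely Snap25, Rbfox3, Gap43 and Syt1 (adjusted p = 0.0111, 0.0152, 0.0371 and 0.0495 by edgeR), and 4 of the 9 tested astrocyte markers did. The most abundant of these, Map2 and Dcx, had log2 fold changes of -0.22 and -0.13 that did not pass. Other cell types differed as well. Oligodendrocyte lineage markers summed to 333 to 426 CPM with vehicle and 248 to 358 CPM with 10HDA over 8 genes, and interneuron markers to 429 to 555 CPM and 374 to 492 CPM over 9 genes, with overlapping ranges. Of the 6 tested oligodendrocyte lineage markers, 4 were below 0 and 2 above. Cspg4 fell without the block (log2 fold change -0.92, adjusted p = 0.0428 by edgeR). With the block Pdgfra, Sox10 and Cspg4 fell (adjusted p = 1.45e-07, 1.16e-05 and 8.95e-05 by edgeR). Olig1 and Olig2 had log2 fold changes of 0.059 and 0.235 that did not pass. Radial glia markers (7 genes) summed to 623 to 766 CPM with vehicle and 512 to 610 CPM with 10HDA, without overlap, mostly through Fabp7 (means 523 and 392 CPM). The sum of the intermediate progenitor markers (5 genes) was higher with 10HDA without overlap, at 66.9 to 97.8 CPM against 43.3 to 59.9 CPM. The difference lay mostly in Insm1 (means 26.7 and 44.5 CPM) and Btg2 (means 16.7 and 26.1 CPM), which rose with the block. Eomes was nearly level (means 2.47 and 2.57 CPM), Neurog2 had means of 3.49 and 4.92 CPM, and Neurog1 was nearly absent. In the scarce endothelial cell and pericyte list the difference lay mainly in Pdgfrb (means 15.4 and 7.21 CPM), and in the meningeal fibroblast list in Dcn (means 8.99 and 4.39 CPM), while the collagen genes of that list had means of 1.06 CPM or less in both treatments. Excitatory neuron markers summed to 1190 to 1450 CPM and 1120 to 1320 CPM over 9 genes. In these bulk samples fewer cells of a type and less RNA per cell cannot be told apart, and the part of these markers in the values of Ntrk2, Ngfr and the other genes was not tested.

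**Figure D3:**
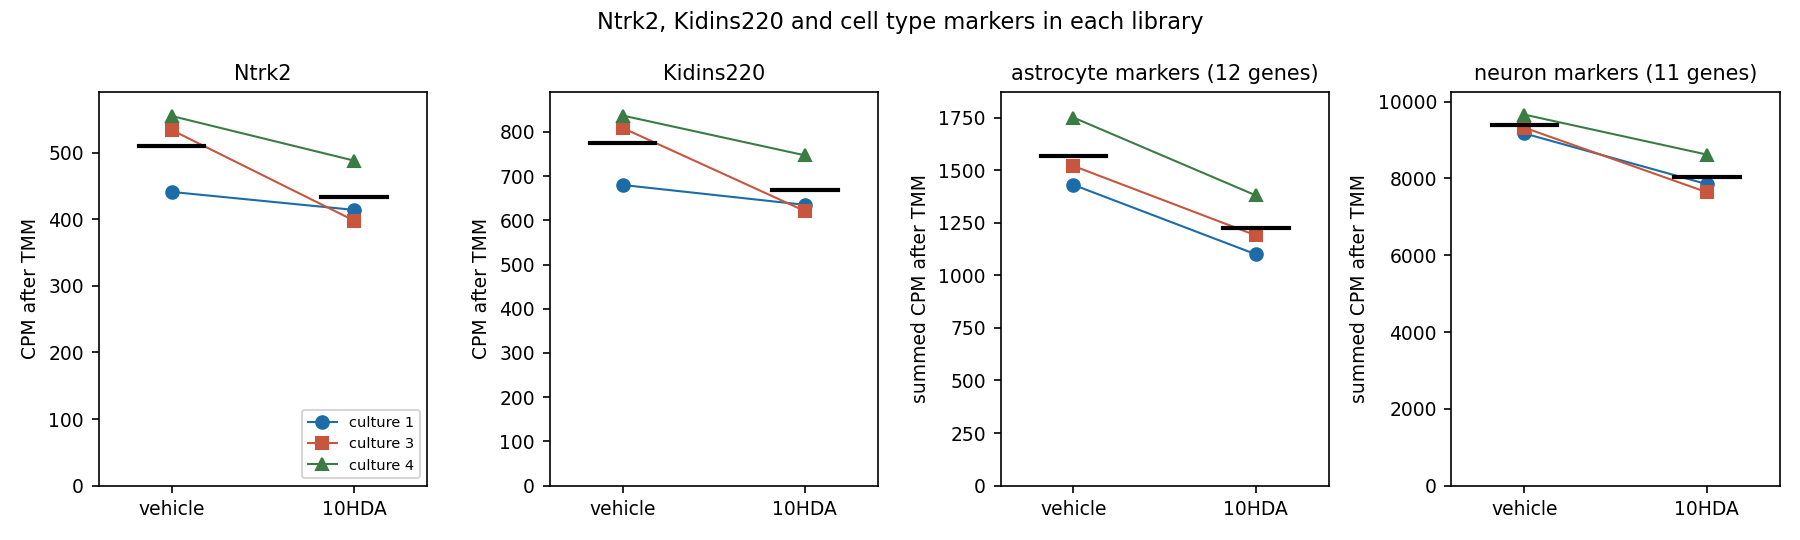
Ntrk2, Kidins220, the summed astrocyte markers and the summed neuron markers in each library, in CPM after TMM on linear axes from 0, with lines joining the libraries of a culture and black bars for means. In culture 3 Ntrk2 falls from 534 to 398 CPM and Kidins220 from 809 to 621 CPM, and both marker sums are lower with 10HDA in all 3 cultures.

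The genes most like Ntrk2 across the 6 libraries, by Pearson correlation of log2 CPM among the genes tested, were Kidins220 (r = 0.999), 1500004A13Rik (r = 0.998) and Daam1 (r = 0.997), and 235 genes had r over 0.95. Kidins220 encodes a membrane protein phosphorylated after Trk activation and was on the list of Trk signal transducers. It had 680, 809 and 837 CPM with vehicle and 635, 621 and 747 CPM with 10HDA in cultures 1, 3 and 4, and its log2 fold change of -0.21 did not pass the test (adjusted p = 0.556 by edgeR). For Bdnf the most similar were Lats2 (r = 0.989), Taf15 (r = 0.986) and Cpox (r = 0.983), and 18 genes had r over 0.95. These values describe 6 libraries that share cultures, and with so few points many genes reach a high r.

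The wider pathway was described by 8 lists that held 120 genes, of which 97 passed the filter. By the edgeR test 0 of the 97 passed the threshold, and 10 had an unadjusted p under 0.05, where 0.627% and 10.1% of all genes did. Among the 97, 62 had a log2 fold change below 0 and 35 above, with 52.1% of all genes below 0, and in 12 (12.4%) the treatments did not overlap, as in 13.5% of all genes. With library size alone the median of all genes tested was 0.07, and the medians of 5 lists given below (BDNF processing, Trk adaptors, p75 interactors, CREB kinases and CREB targets) turned from below to above 0. With culture as a block, 9 of 97 (9.28%) passed, beside 8.98% of all genes tested. Of these, 8 were lower with 10HDA and 1 was higher, where 5.08% of all genes passed as lower and 3.91% as higher. Without culture 1 and with the block 8 of the list genes passed, and 6 genes were common to both fits, namely Camk4, Mef2c, Shc3, Sorcs1, Sorcs2 and Vgf.

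Among 10 other neurotrophins, receptors and co-receptors, 7 were tested, with a median log2 fold change of -0.19, and Sorcs1 and Sorcs2, sortilin relatives that also bind proneurotrophins or Trk receptors, fell with culture as a block. Sorcs2 had 60.5, 50.9 and 67.8 CPM with vehicle and 41.0, 43.3 and 46.3 CPM with 10HDA in cultures 1, 3 and 4. All 3 vehicle libraries lay above all 3 10HDA libraries. The log2 fold change of Sorcs2 was -0.45 (SE 0.12, adjusted p = 0.232 by edgeR), and with the block -0.44 (SE 0.11, adjusted p = 0.0105). Sorcs1 had 17.2, 23.5 and 19.8 CPM with vehicle and 13.6, 15.7 and 14.9 CPM with 10HDA, also without overlap, and a blocked log2 fold change of -0.45 (adjusted p = 0.0344, 0.342 without the block).

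In the list of BDNF processing, transport and release, 8 of 11 genes were tested, 0 passed with or without the block, and the median log2 fold change was -0.05. Its smallest p values belonged to Cadps2, a factor for release of dense-core vesicles (log2 fold change -0.22, adjusted p = 0.651 by edgeR), and Htt, which supports vesicle transport of BDNF (-0.07, adjusted p = 0.838). All 26 Trk adaptors and signal transducers were tested, with a median of -0.04, and Shc3 and Mapk3 fell with the block. Shc3, a neuronal adaptor of Trk receptors, had 22.2, 36.8 and 55.9 CPM with vehicle and 21.0, 22.6 and 34.9 CPM with 10HDA in cultures 1, 3 and 4. It was much lower with 10HDA in cultures 3 and 4 and nearly level in culture 1. Its blocked log2 fold change was -0.51 (SE 0.12, adjusted p = 0.0126 by edgeR), against an adjusted p of 0.530 without the block. Mapk3, which encodes the kinase ERK1, had a blocked log2 fold change of -0.32 (adjusted p = 0.0567, 0.392 without the block).

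Of 11 p75 interactors and proteases 10 were tested, with a median log2 fold change of -0.05. Bex3, an adaptor that binds p75, fell with the block (log2 fold change -0.32, adjusted p = 0.0498 by edgeR, 0.342 without the block), and Irak1, a kinase in p75 signalling, had a log2 fold change of 0.31 that did not pass (adjusted p = 0.445, 0.106 with the block). Of 12 other CREB family factors and coactivators 8 were tested and 0 passed with or without the block, with a median of 0.04. Crebzf and Crtc3 had the smallest p values there, with log2 fold changes of 0.23 (adjusted p = 0.510 by edgeR) and 0.08 (adjusted p = 0.817). That is 0 of 8, where 0.627% of all genes passed without the block and 8.98% with it.

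All 16 CREB kinases and phosphatases were tested, with a median log2 fold change of -0.05. Camk4, a nuclear calcium-dependent kinase that phosphorylates CREB, had 135, 187 and 202 CPM with vehicle and 115, 110 and 151 CPM with 10HDA in cultures 1, 3 and 4. It was lower in 3 of 3 cultures, and by most in culture 3. Its log2 fold change was -0.48 (SE 0.16, adjusted p = 0.354 by edgeR), and with the block it fell by 0.47 on the log2 scale (SE 0.10, adjusted p = 0.00505). Sik3, a kinase that keeps CRTC coactivators out of the nucleus, had a log2 fold change of -0.21 that did not pass (adjusted p = 0.530, 0.239 with the block).

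**Figure D4:**
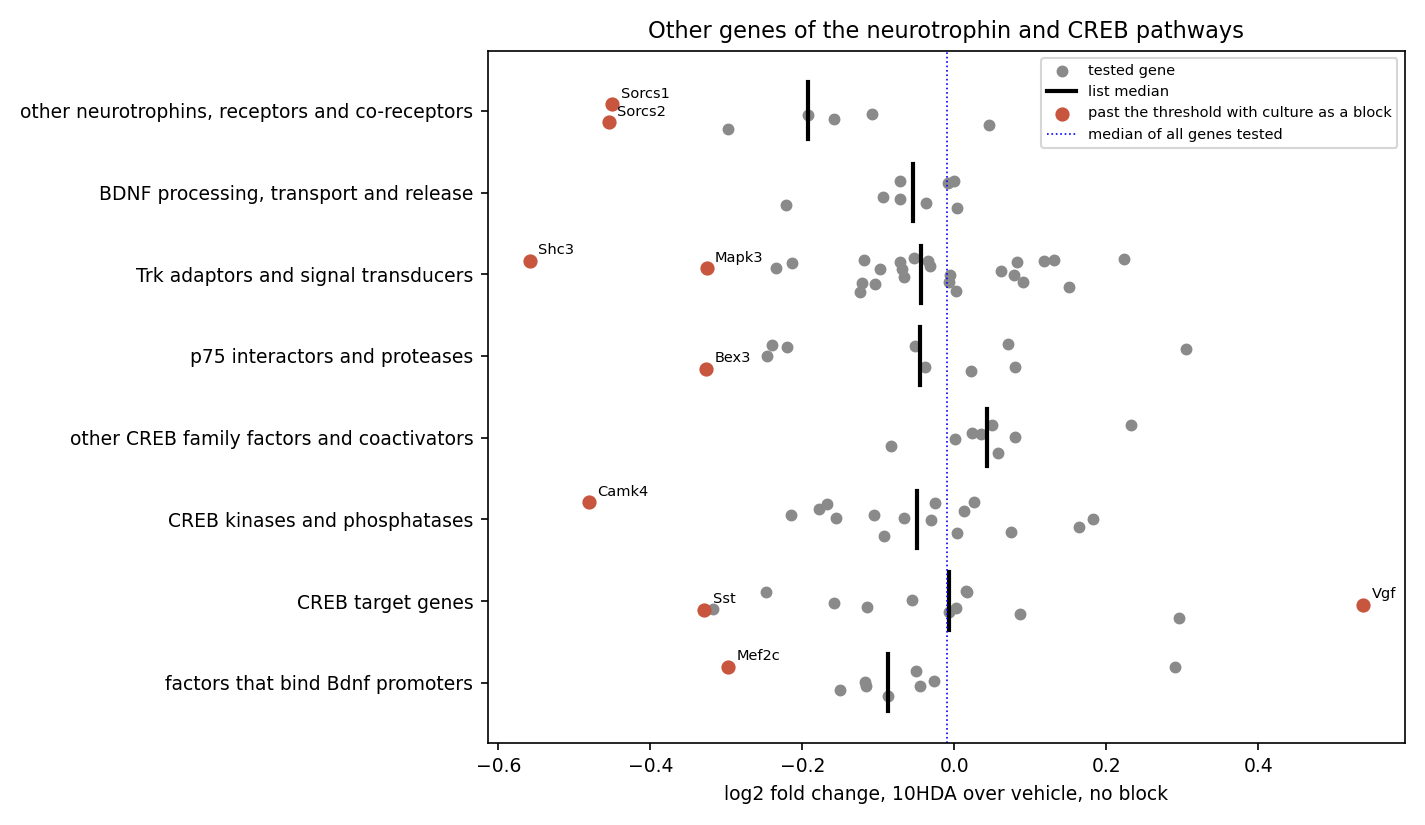
Log2 fold change of 10HDA over vehicle without a block for the 97 tested genes of the 8 pathway lists, with a black bar at each list median and a dotted line at the median of all genes tested (-0.01). Red points are the 9 genes past an adjusted p of 0.1 with culture as a block, of which Vgf at 0.54 is the only one above 0.

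Of 24 CREB target genes 13 were tested, with 6 higher, 7 lower and a median log2 fold change of -0.01. Vgf, which encodes a secreted precursor of neuropeptides, had 66.1, 50.2 and 79.6 CPM with vehicle and 95, 74.4 and 115 CPM with 10HDA in cultures 1, 3 and 4. It was higher in 3 of 3 cultures by log2 ratios of 0.52, 0.57 and 0.53, while the ranges of the treatments overlapped because the cultures differed in level. The log2 fold change was 0.54 (SE 0.18, adjusted p = 0.359 by edgeR), and with the block Vgf rose by 0.54 (SE 0.097, adjusted p = 8.03e-04). Sst, which encodes the interneuron peptide somatostatin, had 127, 100 and 103 CPM with vehicle and 82.8, 107 and 71.4 CPM with 10HDA, and fell with the block (log2 fold change -0.34, adjusted p = 0.0760, 0.499 without it). It was lower in cultures 1 and 4 and slightly higher in culture 3, and it was named here after its values were seen. Interneuron markers moved in the same libraries, with 8 of 9 below 0 (median log2 fold change -0.21), and Calb2, Dlx1, Npy and Dlx2 fell with the block; their part in the value of Sst was not tested. Rgs2, a regulator of G protein signalling, had a log2 fold change of -0.32 with libraries that did not overlap, and did not pass (adjusted p = 0.454, 0.112 with the block).

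Among 10 factors that bind Bdnf promoters 9 were tested, with a median log2 fold change of -0.09, and 8 of the 9 had a log2 fold change below 0. Mef2c, an activity-dependent transcription factor, had 590, 712 and 860 CPM with vehicle and 547, 512 and 698 CPM with 10HDA in cultures 1, 3 and 4, and fell with the block (log2 fold change -0.29, adjusted p = 0.0744 by edgeR, 0.530 without it). Rest, a repressor of neuronal genes, had 15.9, 17.9 and 14.8 CPM with vehicle and 21.1, 18 and 20.4 CPM with 10HDA. The treatments did not overlap, although culture 3 was level, and the log2 fold change of 0.29 did not pass (adjusted p = 0.50, 0.208 with the block).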

How the data were processed

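The authors aligned untrimmed 50 bp single-end reads to mm10 with Subjunc (Subread 1.4.4 per the labels) and deposited raw counts per gene, made with featureCounts on Gencode models; whether counting used strand is not stated. The deposited gene length, a value of another kind than a count, gave RPKM. The members and lists were chosen with earlier results of these data known. Symbols came from a GRCm38 annotation and matched 98.0% of identifiers.

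Counts were scaled by TMM and tested with the edgeR quasi-likelihood test (edgeR 4.0.16, R 4.3.3) on genes that reached 10 CPM in 3 or more libraries, without covariates, with Benjamini-Hochberg adjustment and a two-sided threshold of 0.1. Genes under the filter were fitted on all genes with a count. Log2 ratios within cultures used a prior count of 2. Named were the 10 genes, list genes past the threshold, the 2 list genes with the smallest p, the 3 most correlated genes for Bdnf and Ntrk2, and the 2 most abundant markers; genes named because of the blocked fit or their values (Sst, other markers) fall outside that rule in part.

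Cultures pair the libraries by label: deviations of same-culture libraries correlated at 0.368, 0.235 and 0.616, others at -0.449 to 0.183. Each culture was 1 preparation. Without the block, p-values of the genes tested rest on the spread between libraries within a treatment, combined with a variance pooled over genes. Libraries of the same culture were taken as independent. In the fit on all genes with a count, the variance was the pooled one alone. There the Y-linked gene Uty had an SE of only 0.202, although its vehicle libraries ran from 0.897 to 12.2 CPM. With culture as a block, differences in level between cultures were removed. Those p-values rest mainly on a variance pooled over genes, and less on how much the difference in the gene itself varied from culture to culture. Without culture 1 and with the block, the variance was the pooled one alone. Both kinds of p-value describe these cultures only. With 3 libraries per treatment an exact permutation test could not go below p = 0.1. Alternatives were other scalings, DESeq2 1.42.0, limma-voom (limma 3.58.1), other filters, the block, and leaving out libraries or cultures. Scripts were tested on simulated data.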

Additional observations from a re-analysis of the deposited data

How the results depend on the processing

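The count of tested members past the threshold was 0 under every alternative run except 1, without culture 1 and with culture as a replicate block, where it was 2. For all genes it was 66 and became 170 with DESeq2, 636 with no filter, 945 with culture as a replicate block, 0 to 355 when single libraries were left out (0 without the 10HDA library of culture 1, 355 without that of culture 4), 2 without culture 1, 0 without culture 3, 35 without culture 4, 869 without culture 1 with the block, and 43 at a threshold of 0.05. At 0 calls without culture 3, 689 genes had an unadjusted p under 0.05, and 453 did without the 10HDA library of culture 1. For list genes it was 0 and became 4 with no filter, 9 with the block, 0 to 2 when single libraries were left out, and 8 without culture 1 with the block.

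Of 464 fold changes of 26 named genes under alternatives, 421 kept direction and side of the threshold, 23 kept direction and came to pass it, and 20 changed sign, all near 0. With library size alone Crem had 0.05, Crtc1 0.01 and Htt 0.006 on the log2 scale (0.0465, 0.0106 and 0.00609). When single libraries were left out, Ntf3 ranged from -0.0128 to 0.323, Ntrk3 from -0.361 to 0.00622, Creb1 from -0.0596 to 0.118, Crem from -0.122 to 0.0915, Crtc1 from -0.132 to 0.00236 and Htt from -0.154 to 0.0362. Without culture 1, Ntf3 had -0.000254, Creb1 -0.0239 and Crem 0.0523, and with the block as well Creb1 had -0.0253 and Crem 0.0469. Without culture 3 Crem had 0.0195, and without culture 4 Creb1 had -0.0815 and Crtc1 0.0355. The cause of these changes was not tested. Bdnf, Ntrk2, Ngfr, Sort1 and Crebbp kept their direction under every alternative run, but not their size: when single libraries were left out, Bdnf ranged from 0.0582 (without the 10HDA library of culture 4) to 0.347 (without that of culture 3), Ntrk2 from -0.325 to -0.152, Ngfr from -0.259 to -0.0504, Sort1 from -0.128 to -0.00829 and Crebbp from -0.281 to -0.0392, with the last 2 nearest to 0 without the vehicle library of culture 4. The 25 to 134 counts per library of Bdnf, Ntf3, Ngfr and Crem limit their precision.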

Other observations

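Of the 23 pathway genes under the filter, 0 passed on all genes with a count, where 2.37% of genes did, and 3 passed there with culture as a block, where 5.02% did. Tac1, which encodes the precursor of substance P, had 2.69, 2.80 and 2.66 CPM with vehicle and 4.20, 4.61 and 4.39 CPM with 10HDA in cultures 1, 3 and 4, and rose with the block (log2 fold change 0.70, SE 0.21, adjusted p = 0.0274 by edgeR, 0.161 without it). Gem, a small GTPase induced by calcium, had 2.15, 1.14 and 1.66 CPM with vehicle and 2.14, 2.74 and 3.84 CPM with 10HDA, and rose with the block (0.83, adjusted p = 0.0358). Nfatc4, a calcineurin-dependent transcription factor, had 1.79, 1.29 and 2.08 CPM with vehicle and 0.772, 1.08 and 0.439 CPM with 10HDA, and fell with the block (-1.07, adjusted p = 0.0547). The immediate early genes Fos (1.87 to 3.52 CPM) and Arc (2.04 to 3.41 CPM) were under the filter in every library and did not pass. These genes were named after their values were seen.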
